A study of Homo sapiens with 4 samples.

Results

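The short arm of chromosome 6 carries the largest group of human histone genes and, further towards the centromere, the major histocompatibility complex (MHC). RNAs found at the regulatory elements of these neighbouring regions were examined in K562, an established human chronic myeloid leukaemia line with erythroid features. The assay was GRID-seq, in which a linker joins RNA to the chromatin DNA beside it in fixed nuclei, so that a sequenced molecule pairs an RNA with a genomic place. Elements were taken by position alone: those of the deposited table that lie on chromosome 6 with a start between 25 and 34 Mb (hg38). This gave 301 of 33948 elements, 174 of them enhancers and 127 promoters. A pair of windows was set against each other: the histone clusters at 26 to 28 Mb, with 70 elements, and the MHC, with 176 elements that span 28505189 to 33489150.

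The groups were wild-type cells (WT) and RUNX1 R320* cells, in which a stop codon shortens this blood transcription factor, with 2 libraries per genotype. Both groups were cross-linked with DSG and then formaldehyde, and were grown in the same medium. Whether the libraries are separate cultures, and whether the mutant line is 1 clone, is not stated in the labels. The deposited scores are pooled by genotype, so there is 1 value per genotype, no replicate spread and no test of any genotype difference, and the sequencing depth is unknown.

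A connection is a pair of 1 RNA and 1 element. Each has a score per genotype, which is at least 1.2 where the connection is listed and 0 where it is not, and its formula is not stated in the labels or the table. A connection is local or cis when RNA gene and element share a chromosome, and trans when they do not. In pooled libraries, a missing connection may come from fewer cells with the contact or from less of the RNA per cell, and these cannot be told apart. The erythroid identity of the line could be seen in the table: the fetal globin RNA HBG2 had 270 connections, and CD3E and CD14, markers of T cells and monocytes, had 0 as RNAs.

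Replication-dependent histone genes are short, have no introns and are transcribed together in S phase, when chromatin is assembled on new DNA. Their transcripts end in a stem-loop in place of a poly(A) tail, and transcription and processing factors gather with the gene clusters in histone locus bodies. The MHC holds the class I and class II antigen-presenting genes, with the dense class III stretch of complement, cytokine and RNA-processing genes between them. K562 cells are known for very low HLA class I on their surface. Long noncoding RNAs such as NEAT1 and MALAT1 stay in the nucleus and lie on many active genes in trans.

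The upstream sequences of 4 genes whose RNAs lead the results are shown because they mark the sources of the RNAs: the histone gene itself, the distant gene GMPR, and the MHC genes HCG18 and MSH5. Each is the stretch of 250 bases before the RefSeq start (GRCh38.p14, which has the coordinates of hg38), written on the gene's own strand. Capitals mark matches, on either strand, to the octamer ATTTGCAT, to CCAAT and to TATAAA, with ATGCAAAT and ATTGG as the reverse complements of the first pair.
H2AC6 (HIST1H2AC), chr6:26123922-26124171, plus strand: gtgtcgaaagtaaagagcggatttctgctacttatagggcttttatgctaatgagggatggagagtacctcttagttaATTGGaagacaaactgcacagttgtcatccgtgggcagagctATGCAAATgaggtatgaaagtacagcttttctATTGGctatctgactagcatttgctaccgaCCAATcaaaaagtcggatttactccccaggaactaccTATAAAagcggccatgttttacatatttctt
GMPR, chr6:16238337-16238586, plus strand: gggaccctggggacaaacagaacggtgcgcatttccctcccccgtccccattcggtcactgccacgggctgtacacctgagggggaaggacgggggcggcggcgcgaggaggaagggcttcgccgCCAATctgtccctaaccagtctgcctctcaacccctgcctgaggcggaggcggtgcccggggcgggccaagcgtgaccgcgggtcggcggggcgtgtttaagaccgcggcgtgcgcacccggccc
HCG18, chr6:30327157-30327406, minus strand: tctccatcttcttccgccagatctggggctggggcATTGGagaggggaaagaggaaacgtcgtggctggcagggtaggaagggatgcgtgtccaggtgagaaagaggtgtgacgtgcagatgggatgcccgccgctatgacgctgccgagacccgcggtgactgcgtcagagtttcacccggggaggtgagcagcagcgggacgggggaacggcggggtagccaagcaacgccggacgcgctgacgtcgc
MSH5, chr6:31739755-31740004, plus strand: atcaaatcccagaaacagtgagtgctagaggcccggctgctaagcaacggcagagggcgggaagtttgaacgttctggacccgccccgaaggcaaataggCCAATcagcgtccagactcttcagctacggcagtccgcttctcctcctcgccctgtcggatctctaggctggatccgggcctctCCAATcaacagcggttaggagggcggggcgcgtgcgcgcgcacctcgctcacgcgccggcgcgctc
The histone promoter is A+T-rich, with 41.2% G+C, and holds an octamer 130 bases before the start, CCAAT matches at 172, 98 and 68 bases and TATAAA at 31 bases. GMPR, HCG18 and MSH5 have 71.2%, 64.8% and 63.6% G+C in the same stretch, with CCAAT matches and no octamer or TATAAA match. The octamer was not limited to the histone gene: PRRC2A, another gene whose RNA leads in the MHC, has matches at 198 and 90 bases before its start.

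The 301 elements had 1013 connections with 139 RNAs, of which 112 were protein-coding and 27 were long noncoding. WT listed 669 connections and R320* 655, and 311 were listed in both. WT alone listed 358 (35.3%), and R320* alone 344 (33.96%), where the whole table of 115357 connections had 26.3% and 28.52% in the same order. The totals were thus near equal, but fewer of the connections were shared, at 30.7% against 45.2% in the table. Within each type the shares were nearer: 52.6% of cis connections against 51.4%, and 9.14% of trans connections against 11.5%. The mix of types differed, with 51.8% of all connections in trans here and 19.0% in the table. Trans connections were common here: they made up 45.6% of WT connections (95% exact binomial interval 41.8 to 49.5) and 40.9% of R320* connections (37.1 to 44.8), against 15.5% and 13.6% in the table. These intervals cover counting error only, and neighbouring elements that meet 1 RNA are not independent.

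The plot of connections by stretch shows where the windows part. The histone window listed 148 connections in WT and 100 in R320*, a ratio of 0.676, while the MHC listed 409 and 422. Of the 218 connections in the histone window, 54.1% were in WT alone, 32.1% in R320* alone and 13.8% in both. In the MHC the shares were 33.3%, 35.4% and 31.3% of 633. Elements in the histone window met 2.11 RNAs on average in WT and 1.43 in R320*, and those of the MHC 2.32 and 2.398.

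**Figure D1:**
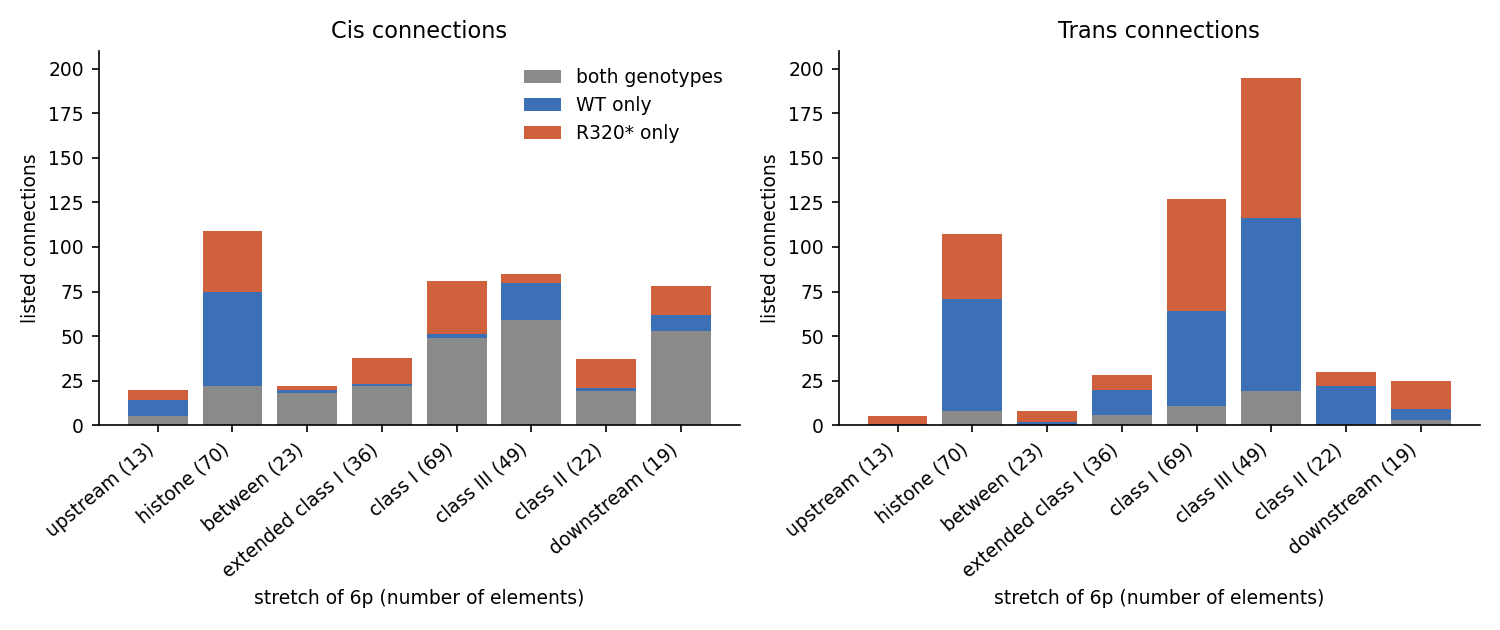
Listed connections (vertical axis, number) in 8 stretches of 6p, in order along the chromosome, for cis (left) and trans (right) connections; grey is both genotypes, blue WT only and orange R320* only, and the number of elements is in brackets. Local connections, 18 in all, are not drawn. Grey leads the cis bars from 28 Mb on, and it is small in the histone window (22 of 109 cis connections) and in all trans bars.

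Among single RNAs, HIST1H2AC (ENSG00000180573.9; RefSeq H2AC6, chromosome 6, 26124172 to 26124690) stood out in the histone window by number. It encodes a core H2A histone and was the only histone-gene RNA listed at any of the 301 elements. It met 29 elements of the histone window in WT and 0 in R320*, and anywhere in the genome 33 elements in WT and 0 in R320*. Histone genes are near-identical copies, so reads from several of them could be counted as HIST1H2AC or lost, and the authors' counting is not given here. An RNA listed in WT alone was not unusual: 273 RNAs of the table were, and HIST1H2AC was the 49th by number of elements.

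The scores of HIST1H2AC RNA in WT were highest at the gene. The enhancer at HIST1H2BC, the neighbouring H2B gene, had 3.72 (26113424 to 26116991), the promoter at HIST1H2AC itself 3.06 (26119929 to 26128918), and an enhancer beside it 3.01 (26138118 to 26141996). Scores at the HIST1H2BD enhancer and promoter, further along, were 2.65 and 2.49, and the lowest was 1.27 at the promoter of the linker histone gene HIST1H1D. The contacts filled the first cluster: 28 of the 43 elements at 26 to 27 Mb were met, and 1 of the 27 at 27 to 28 Mb. All 17 same-chromosome connections of the histone window under 100 kb were of this RNA.

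This 1 RNA bears on the window's totals. Without it, an alternative chosen after seeing the data, the histone window had 119 connections in WT and 100 in R320*, a ratio of 0.840, with 47.1% in WT only and 37.0% in R320* only. Its same-chromosome connections turned from 77 in WT and 56 in R320* (0.727) to 48 and 56 (1.17). The lower number in R320* then lay in trans connections alone, with 71 in WT and 44 in R320* (0.620). Only 8 of those were shared.

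The most widespread visitor listed in both genotypes at the first histone cluster came from another part of 6p. GMPR (ENSG00000137198.9, 16238587 to 16295549) encodes guanosine monophosphate reductase, an enzyme of purine salvage that is abundant in red cell precursors. Its RNA met 26 elements of the histone window, 18 in WT, 23 in R320* and 15 in both, at 9.71 to 10.8 Mb from its gene. Of these, 25 lay among the 43 elements at 26 to 27 Mb. It met 42 of the 67 elements within 1 Mb of its own gene, but none of the 60 elements at 18 to 25 Mb, none of the 13 at 25 to 26 Mb and none of the MHC. It reached 1 element at 27 to 28 Mb, the HIST1H2BJ promoter, with 1.54 in WT and 2.05 in R320*.

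The far contacts had scores like those of the near ones. The median score of GMPR RNA at 26 to 27 Mb was 1.77 in WT and 1.94 in R320*, and within 1 Mb of the gene it was 1.65 and 1.67. At the HIST1H3A promoter, an H3 gene, GMPR scored 2.31 in WT and 1.89 in R320*. The HIST1H2BB promoter had 2.33 and 2.01, and the HIST1H2AD promoter 1.86 and 2.38. Over shared elements the median difference, R320* minus WT, was 0.07 with an SD of 0.34, so that scores moved either way.

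Where GMPR was listed in 1 genotype only, the places differed. The 3 elements in WT only lay between 26002902 and 26088590, at the HFE promoter and enhancer (HFE controls iron uptake) and at U91328.1, with scores of 1.52 to 1.93. The 8 in R320* only lay between 26222522 and 26316823, from HIST1H3E to AL021917.1, with scores of 1.49 to 2.27. The 14 elements at 26 to 27 Mb that were listed in both all lay before this second group. Of the 26 elements, 21 had a histone gene as the nearest gene, against 30 of the 70 elements in the window. Whether GMPR RNA prefers histone genes was not tested. The 70 include 27 elements at 27 to 28 Mb, where GMPR met 1, and those between 26316823 and 27 Mb, where it met none. Between 26002902 and 26316823 it also met every element nearest to U91328.1, HFE or AL021917.1. The only elements missed there were an enhancer at HIST1H2AC (26132321 to 26132550) and a promoter at HIST1H2BD (26168688 to 26174603).

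Taken over both genotypes, GMPR and HIST1H2AC RNA met nearly the same elements. HIST1H2AC was listed in WT only, and 8 of the 26 GMPR elements in R320* only. A shared element therefore need not hold both RNAs in 1 genotype. The RNAs shared 24 elements, which is 92.3% of the GMPR elements and 82.8% of the HIST1H2AC elements. These neighbours in the genome share libraries and depth, so the overlap is a description. Among 2495 placed RNAs of the table, 1013 had any contact over 5 Mb on their own chromosome. GMPR tied for rank 8 of these by contacts listed in both genotypes, with 15, while LINC02506 led with 53. Of the 56 same-chromosome connections of the histone window over 5 Mb, 37.5% were shared, against 13.3% in the table, and GMPR gave 15 of the 21 shared ones.

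**Figure D2:**
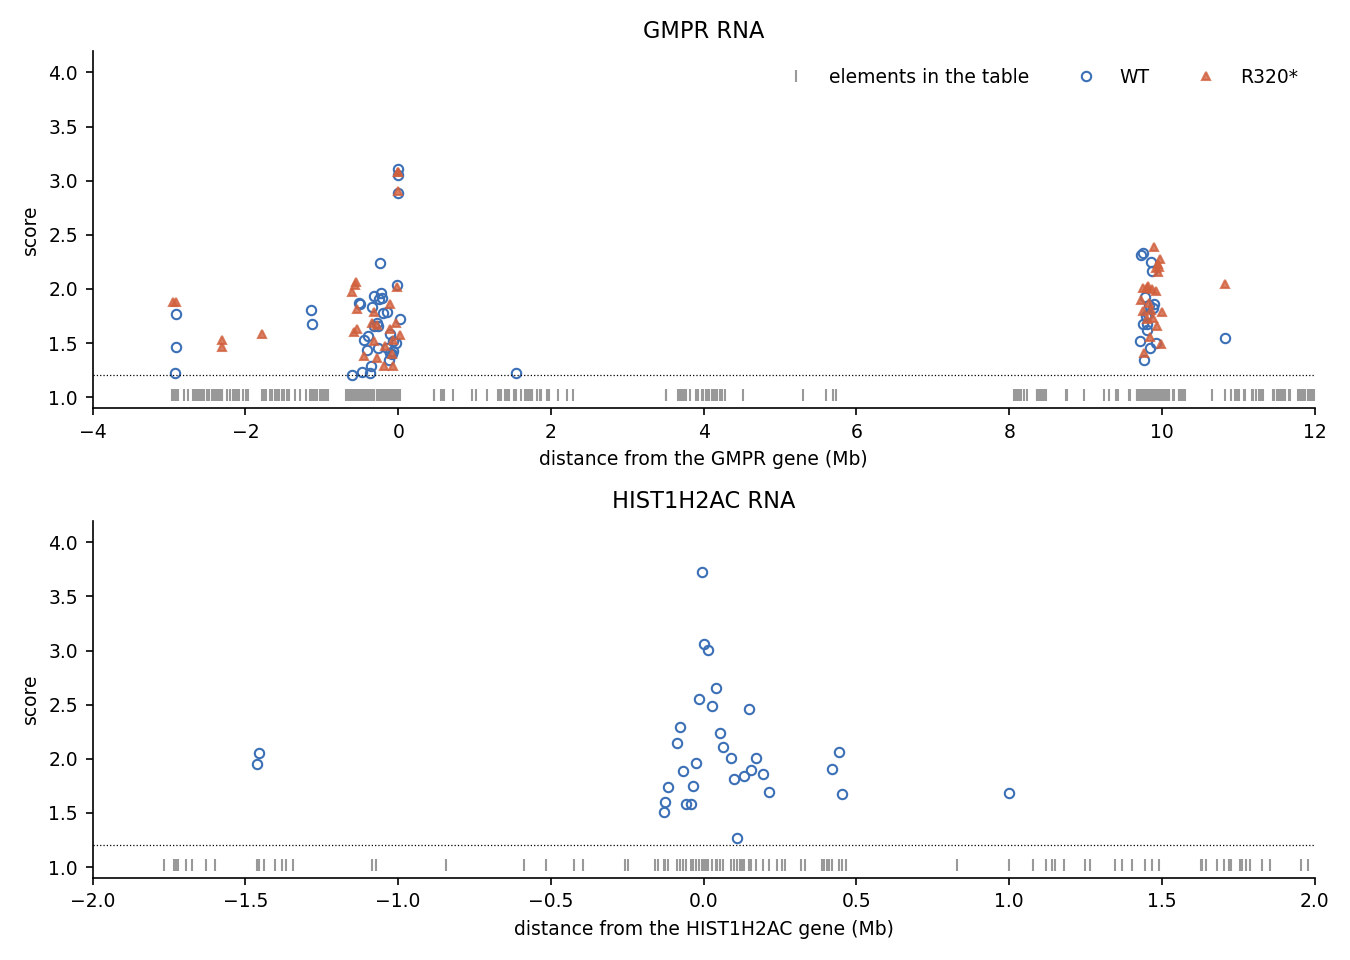
Score (vertical axis, deposited units) of GMPR RNA (top) and HIST1H2AC RNA (bottom) at each element against the element's distance from the RNA's own gene in Mb; circles are WT, triangles R320*, grey ticks all elements of the table, and the dotted line the lowest listed score of 1.2. GMPR contacts form groups at the gene and at a distance of 9.71 to 10.8 Mb. Between these groups, elements at chromosome positions 18 to 25 Mb have no contact. HIST1H2AC has circles only.

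E2F3 and NUP153, also on 6p, met the histone window from 5509 to 8812 kb away. E2F3 encodes an E2F transcription factor of S-phase entry, and NUP153 a nuclear pore protein. E2F3 RNA met 9 elements, 7 in each genotype and 5 in both, with median scores of 1.48 in WT and 1.47 in R320*. NUP153 RNA met 5 elements, 3 in each genotype and 1 in both. Unlike GMPR, NUP153 RNA was also listed at 20 of the 60 elements at 18 to 25 Mb. CD2AP, ELOVL5 and HIVEP1 reached 2 elements each, each in 1 genotype only.

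ZBED9 (ENSG00000232040.3; RefSeq SCAND3, 28570535 to 28616202), a transposase-derived zinc finger gene at the edge of the MHC, reached into the histone window from the other side. Its RNA met 25 elements there, 11 in WT and 15 in R320*, and only 1 was shared. That one was an enhancer near POM121L2, with 1.44 in WT and 2.12 in R320*. At 27 to 28 Mb it met 21 of 27 elements, 11 in each genotype, and at 26 to 27 Mb it met 4, all in R320*. Within the MHC the same RNA was far more stable, with 25 elements in WT, 34 in R320* and 24 in both. Contacts in both genotypes were near the gene, at a median of 127 kb, and those in 1 genotype only were further out, at 730 kb in WT and 682 kb in R320*.

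Histone genes were nearest to 31 elements (30 in the histone window), 19 of them promoters, with 84 connections in WT and 66 in R320* and 22 in both. Of these 31, 17 elements met fewer RNAs in R320*, 10 met more and 4 met equal numbers. Without HIST1H2AC RNA the same 31 elements had 65 connections in WT and 66 in R320*, with 11 meeting fewer RNAs in R320*, 13 more and 7 equal numbers. Over all 70 elements of the window the counts, all RNAs included, were 36 fewer, 22 more and 12 equal, and in the table as a whole they were 11010, 12433 and 10505. HIST1H3A had the most visited promoter, with 15 RNAs, 10 in each genotype and 5 in both. Strong visitors there in WT were LINC01194 with 2.503 and LINC01033 with 2.21, both trans long noncoding RNAs. HIST1H2BD, an H2B gene with 3 elements, had 12 connections in WT and 4 in R320*, and HIST1H2BN had 7 and 2.

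Promoters of 41 histone genes overlapping promoter elements of the window share sequence features that the choice by position did not use. The octamer ATTTGCAT was found in 43.9% of them and in 1.77% of all 35116 RefSeq promoters of 300 bases. CCAAT was in 85.4% against 34.6%, and TATAAA in 68.3% against 11.5%. The RUNX motif TGTGGT was in 14.6% against 13.1%, while the erythroid motif AGATAA was in 12.2% against 10.3%. Among the 11714 promoters that lie in promoter elements of the table, the shares were 1.15% for the octamer, 34.7% for CCAAT, 4.87% for TATAAA, 8.90% for TGTGGT and 4.73% for AGATAA. In promoters inside MHC promoter elements, 141 in number, the octamer was in 1.42% and TGTGGT in 12.1%. Both strands were searched, matches of different motifs may overlap, and a match is a description of letters only.

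The number of RNAs per element was compared for elements listed in both genotypes whose mean was 2 RNAs or higher, and differences of 2-fold or larger were counted. With counts this small, such differences can arise from counting error, and no test was possible. Among 27 elements of the histone window, 0 had such a gain of RNAs in R320* and 13 such a loss (48.1%). The table held gains at 12.4% and losses at 9.60% of 17481 elements. Without HIST1H2AC RNA, 25 elements could be compared, with 4 gains and 11 losses. The MHC had 17 gains and 12 losses among 81 elements.

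Among elements listed in both genotypes, the steepest differences of the histone window were at the noncoding genes HCG11 and LINC00240. The HCG11 promoter (26519116 to 26524550) and enhancer (26527407 to 26531611) had 6 RNAs in WT and a single one in R320* apiece, none in both. In WT 4 of those RNAs came from the β-globin locus on chromosome 11: HBE1 and HBG2, the embryonic and a fetal globin gene, with OR51B5 and AC104389.4. These gene models lie together and their scores ran in parallel, so they cannot be counted as 4 separate sources. The BTN1A1 enhancer beside them met 5 RNAs in WT and 0 in R320*. Counting it, the globin-locus RNAs met 3 elements in WT, at 1.28 to 1.64, and 0 of those in R320*. In R320* these RNAs were instead at 5 elements of class III in all, at 1.22 to 1.63, so none of the 29 connections was shared. This group was chosen after its values were seen.

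At the LINC00240 promoter (26954710 to 26958399) 6 RNAs were listed in WT and 1 in R320*, all in trans. It held the strongest trans contact of the histone window, BDP1, a subunit of an RNA polymerase III initiation factor, with 3.95 in WT and no listing in R320*. MAST4, a kinase gene RNA, was listed in both with 3.15 and 2.95. ARL15 RNA had 2.42 in WT. BDP1, MAST4 and ARL15 all come from chromosome 5. That chromosome gave 18.7% of the trans connections in the histone window (20 connections, 9 RNAs), 6.84% in the MHC and 6.13% in the table, which was also noticed after the values were seen.

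The MHC window was led by RNAs from its own genes. HCG18 (ENSG00000231074.9, 30287397 to 30327156), a long noncoding RNA gene between the class I genes, met 68 elements, 53 in WT, 66 in R320* and 51 in both. Its median score was 1.96 in WT and 1.93 in R320*, and its highest 3.01 and 2.99. MSH5 (ENSG00000204410.15, 31740005 to 31762676), a meiotic recombination protein gene in class III, met 46 elements, 39 in WT, 40 in R320* and 33 in both. The readthrough model MSH5-SAPCD1 shared 41 of its 42 elements with MSH5, so these are 1 signal. PRRC2A, a gene of an RNA-binding protein, met 11 elements in WT and 7 in R320*, all 7 shared, with the highest same-chromosome score of the window at the AIF1 promoter (4.22 in WT and 4.08 in R320*).

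These local neighbourhoods were steady between genotypes. Of the MHC connections within 100 kb of the RNA's gene, 92.3% were in both genotypes, and the share fell to 70.8% at 100 kb to 1 Mb and 11.4% at 1 to 5 Mb. In the table these shares were 80.5%, 61.1% and 32.6%. Same-chromosome connections of the MHC in R320* only numbered 66 and in WT only 26. By distance, R320* only and WT only held 1 and 4 connections under 100 kb and 28 and 12 at 100 kb to 1 Mb. Further out they held 28 and 3 at 1 to 5 Mb, and 9 and 6 over 5 Mb. In the table these counts were 1613 and 1814, 8998 and 7398, 7566 and 5931, and 3919 and 3261, in the same order. The readthrough models MSH5-SAPCD1 and RPS10-NUDT3 were counted beside MSH5 and NUDT3, whose elements they mostly share.

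**Figure D3:**
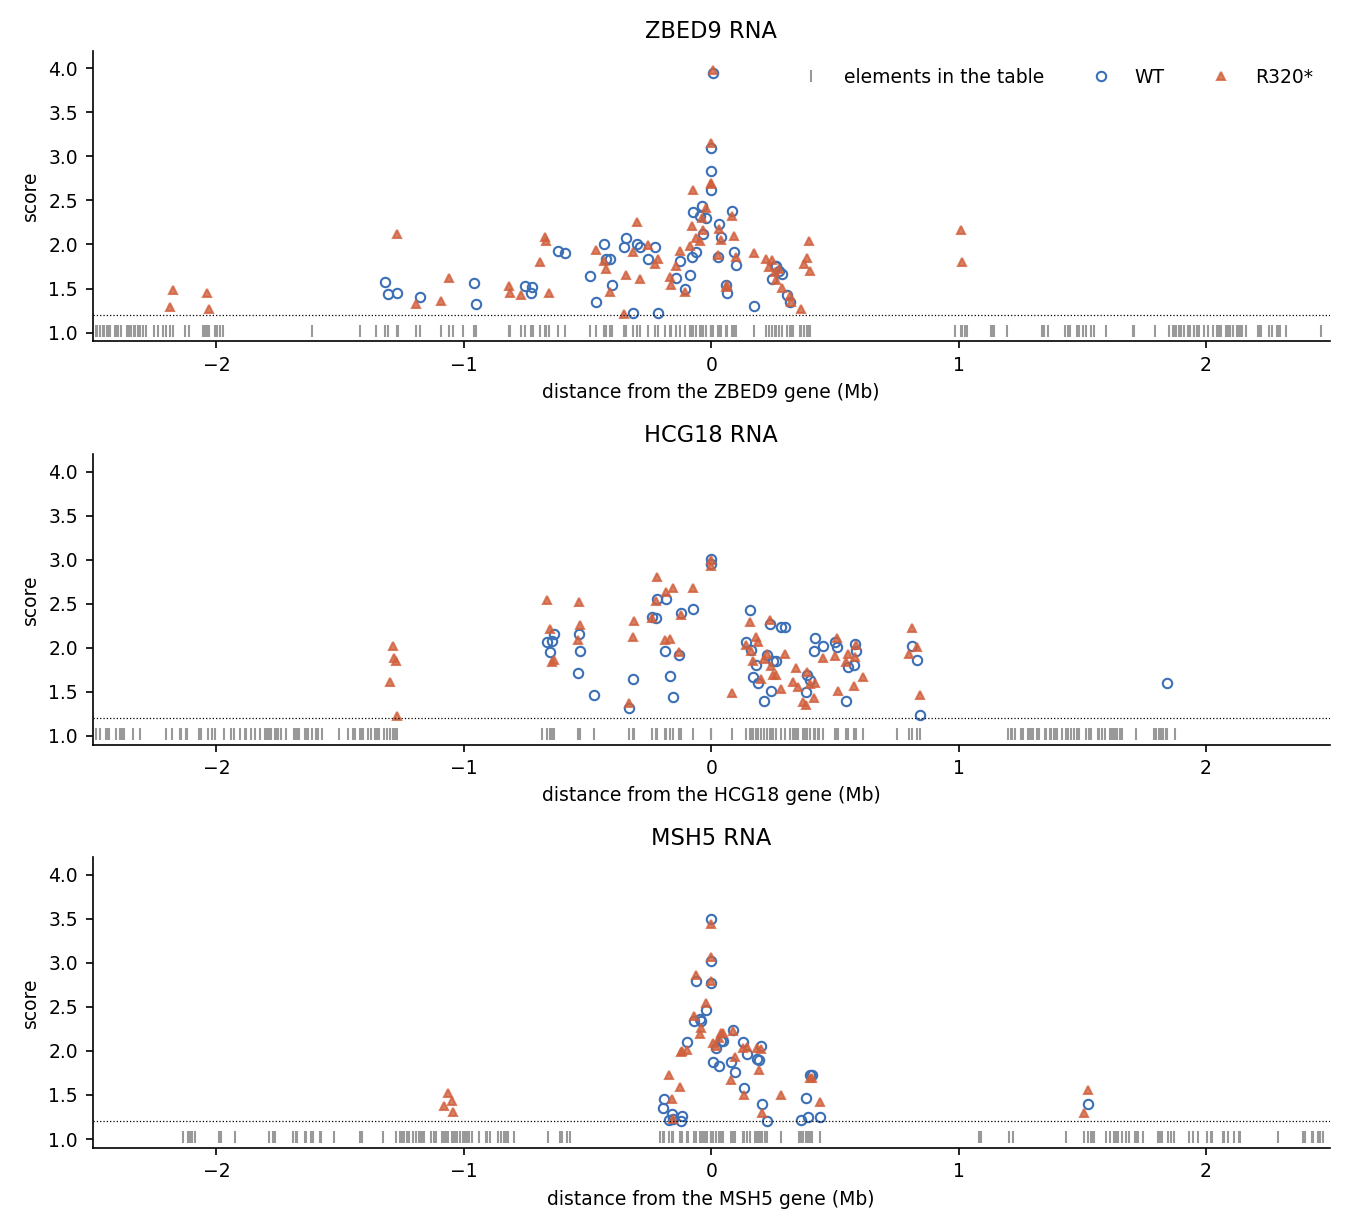
Score (vertical axis, deposited units) of ZBED9, HCG18 and MSH5 RNA at elements within 2.5 Mb of each gene against distance in Mb; symbols are as for GMPR. Scores are highest at the gene itself, where both genotypes lie together, and single-genotype points are mostly further away, such as the triangles of HCG18 near -1.3 Mb.

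The class I stretch (69 elements from 29602811 to 31170104) listed more connections in R320* than in WT, 155 against 117. It had 30 same-chromosome connections in R320* only and 2 in WT only, and HCG18 gave 10 of the former. MSH5 and its readthrough model, which are 1 signal, gave 4 each. In the table, cis connections in R320* only numbered 23391 and those in WT only 19571. Of 30 elements compared, 11 (36.7%) had a gain of RNAs of at least 2-fold in R320* and 3 (10%) a loss. The table had 12.4% and 9.60%, in the same order. By direction alone, 29 elements met more RNAs in R320*, 9 fewer and 31 equal numbers, where the table had 12433, 11010 and 10505. The promoter of DDR1, a collagen receptor gene, met 1 RNA in WT and 4 in R320*, 3 of these in trans.

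Among the class I genes, HLA-E was nearest to 3 elements, with 3 connections in WT, 4 in R320* and 3 in both, and HLA-G to 1 element. Neither gene's RNA was listed at any of the 301 elements. All 4 elements met HCG18 RNA. At HLA-E, a ligand of inhibitory natural killer receptors, the promoter had HCG18 scores of 1.97 in WT and 1.96 in R320*, and the enhancers 2.42 and 2.29, and 1.67 and 1.85. The HLA-G enhancer had 1.47 in WT only. For antigen processing genes, TAP1 and TAPBP had elements, with 6 connections in WT and 3 in R320*.

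HCG18 also gave the only score difference of at least 1 unit among the 311 connections listed in both genotypes, where the table had 0.175% of 52089. It was at an enhancer 5010 bases from TRIM40, an E3 ligase gene (30130714 to 30131115), with 1.45 in WT and 2.68 in R320*, a difference of 1.23. Taking 1 connection per RNA, the next rises were ANKS1A RNA at a LINC01016 enhancer (1.49 to 2.405), MSH5 RNA at the AIF1 promoter (1.203 to 1.985) and ZBED9 RNA at the ZKSCAN4 promoter (1.22 to 1.92). Taken in the same way, the lowest differences were ZBED9 at a ZSCAN9 enhancer (1.97 to 1.22), HCG18 at the MRPS18B promoter (2.24 to 1.53), PRRC2A at the LY6G5C enhancer (2.13 to 1.67) and GMPR at the HIST1H2BD promoter (2.24 to 1.80). Further connections of HCG18 had larger negative differences than the last pair, at the FLOT1 promoter (1.96 to 1.43) and an HCG20 enhancer (2.11 to 1.60). Over all shared connections the median difference was 0.04 with an SD of 0.25, and the table's median was also 0.04.

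ZNF311, a zinc finger gene of the extended class I stretch, had the clearest one-sided block. Its 4 elements had 1 connection in WT and 12 in R320*. ZBED9 RNA was at all 4 in R320*, with 1.70 to 2.04, and HCG18 RNA at all 4, with 1.22 to 2.02, and neither was listed there in WT. The FHIT connection of 1.25 was the only one in WT. Zinc finger genes as a list (14 genes with 29 elements) had 27 connections in WT and 44 in R320*. These totals include the ZNF311 block, with its 1 and 12, and the antisense gene ZSCAN16-AS1. In the list 16 elements met more RNAs in R320* and 5 fewer, where the table had 12433 and 11010 of 33948.

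The class III stretch (31527548 to 32197835) had the highest mean of the stretches, with 5.88 RNAs per element against 3.40 in the table. Its median of 5 was below the 6 of the stretch after the MHC. The mean counts the readthrough model MSH5-SAPCD1, with 36 connections there, apart from MSH5. WT listed 204 connections there and R320* 170, with trans shares of 56.9% and 57.6%. The CSNK2B promoter (casein kinase 2 beta; 31650109 to 31671951) met 20 RNAs, 13 in WT, 12 in R320* and 5 in both. The LY6G5C enhancer (31676497 to 31677433), only 937 bases long, met 19, of which 16 were in WT and 9 in R320*. RUNX1 RNA itself was listed at 1 of the 301 elements, the CSNK2B promoter, in R320* only with a score of 1.46. The AL662899.1 promoter met 9 RNAs in WT and 3 in R320*.

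Gene lists for the MHC, drawn up with earlier results known, divided as follows. Class III complement, TNF-family and heat shock genes had 11 elements with 32 connections in WT and 19 in R320*. Of these elements, 8 met fewer RNAs in R320* and 3 more. The class III stretch as a whole leaned the same way, with 28 elements fewer, 15 more and 6 equal. In the table the counts were 11010, 12433 and 10505. Chromatin and RNA-processing genes had 31 elements with 104 and 102 connections, 111 of the 160 in trans. Trans made up 60.0% of all connections in the MHC and 67.7% in class III. MDC1, a DNA damage adaptor gene, had 14 connections in WT and 20 in R320*. The DEAD-box helicase gene DDX39B had 4 and 0. BRD2, a bromodomain gene of class II, met 6 RNAs at its promoter in WT and 2 in R320*. At and before the histone clusters, butyrophilin genes and their neighbours had 16 and 13 connections, and a list of iron and phosphate transport genes and their neighbours 17 and 9. In that list HFE had 6 and 2 connections and the phosphate transporter gene SLC17A3 3 and 0, while the neighbours TRIM38, a ubiquitin ligase gene, and CARMIL1, a gene of an actin regulator, had 5 and 2, and 3 and 5.

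Trans connections came from 99 RNAs and numbered 525, of which 9.14% were in both genotypes, against 11.5% in the table. Adjacent elements met by 1 RNA within 100 kb formed 225 places, and 58 of the RNAs were at a single place. Only 9 RNAs had any shared trans connection. LMAN1, whose protein carries cargo from the endoplasmic reticulum, had 16, NEAT1 and MALAT1 10 each, SKI 5 and LINC02109 3, so that the first 3 gave 36 of 48. The scores of shared trans connections were low, with a median of 1.46 in each genotype.

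LMAN1 RNA, from chromosome 18, met 30 elements, 25 in WT and 21 in R320*. Its highest scores were at an enhancer of LINC01556 in extended class I, with 1.91 in WT and 1.78 in R320*, and at the LINC01556 promoter, with 1.76 and 1.59. In the histone window it met 9 elements in WT and 4 in R320*, all 4 shared, and in the MHC 15 in each genotype and 11 in both. NEAT1 met 36 MHC elements, 20 in WT, 25 in R320* and 9 in both, and 6 histone-window elements, 3 in each genotype and none in both. MALAT1 met 22 MHC elements, 17 in WT, 14 in R320* and 9 in both, and 7 in the histone window, 5 and 2. NEAT1 and MALAT1 meet 1739 and 1056 elements of the whole table, so these are a small part of their contacts.

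Other trans RNAs leaned to 1 genotype here, where only 9.14% of trans connections were shared. TMCC2, an erythroid-expressed gene, met 3 MHC elements in WT and 11 in R320*, and GSE1 met 10 and 2. Over the whole table TMCC2 met 165 and 187, and GSE1 103 and 119. In the histone window GSE1 met 4 and 5, and 14 and 8 over the 301 elements. PRKCB, NRP1, MEG3 and PVT1 were chosen after their values were seen, apart from the list of nuclear long noncoding RNAs that holds the last pair. PRKCB met 12 of the 301 elements at 5 places, 1 in WT and 11 in R320*, against 319 and 380 over the whole table. NRP1 met 10 of the 301 elements at 3 places, all in WT. NRP1 was listed at no element in R320* anywhere. The long noncoding RNA MEG3 met 3 elements at 1 place, all in WT, and PVT1 met 3 at 1 place, all in R320*.

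**Figure D4:**
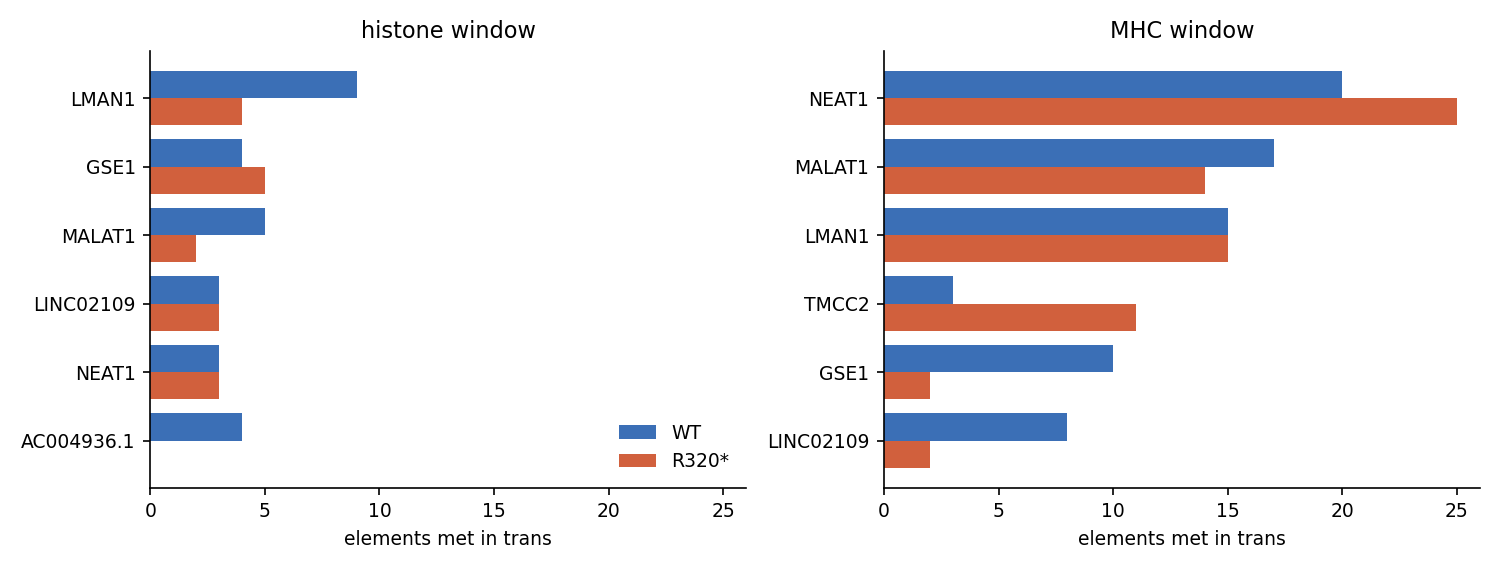
Number of elements met in trans (horizontal axis) by the 6 leading trans RNAs of the histone window (left) and the MHC (right), in WT (blue) and R320* (orange). In the MHC NEAT1 leads with 20 and 25 elements, LMAN1 has 15 in each genotype, and TMCC2 (3 and 11) and GSE1 (10 and 2) lean to opposite genotypes.

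Of the 25 highest trans scores, 1 was in both genotypes, MAST4 at LINC00240. Of all trans connections, 9.14% here and 11.5% in the table were in both. Several of the 25 are 1 RNA at neighbouring elements, so they are not 25 separate contacts. UBE2K, a ubiquitin-conjugating enzyme gene, reached 4.17 at the EHMT2 enhancer and 4.09 at the C2 promoter in WT. LARP1, whose protein binds mRNAs of the translation machinery, met the HIST1H2BD promoter and enhancer with 3.51 and 3.48 in WT. AGBL5 reached 3.53 and 3.46 at AL121936.1 in R320*. PCF11, a transcription termination factor, had 3.40 at the PFDN6 promoter and 3.23 at the TAPBP enhancer in WT. These were listed after their values were seen.

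Element types differed from the table in both windows. Promoters made up 45.7% of the histone-window elements, 43.2% of the MHC elements and 29.7% of the table. Elements were also longer, with medians of 5099.5 bp in the histone window, 3194 bp in the MHC and 1868 bp in the table. Promoters of the histone window met 3.66 RNAs on average and enhancers 2.66, and in the MHC 4.07 and 3.24, with 3.89 and 3.19 in the table. Length moves with these numbers, since promoters of the histone window had a median of 6276 bp and enhancers 3817.5 bp, and its part in them was not tested.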

How the data were processed

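GRID-seq contacts were measured in K562 cells, with 2 libraries per genotype and 4 in all; groups follow the labelled genotype. The submitters' processing notes name cutadapt 1.12, BWA, bedtools and the hg38 build. The deposited table gives a score for each connection, pooled by genotype by the authors; no source used here gives its formula, scale or the depth behind it. Its further column is the difference of these scores, WT taken from R320*. A score of 0 was read as not listed. Starts, taken as 0-based, are given 1-based.

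From these values, connections, RNAs and elements were counted per stretch with python 3.11.15 and pandas 2.3.3. Distances run from the nearest end of the gene in a RefSeq table (GRCh38.p14), which placed 126 of the 139 RNAs, 4 of them through an older symbol. Upstream sequences and promoters come from RefSeq tables of the same build. Score differences of at least 1 unit and 2-fold differences in RNAs per element (mean of at least 2) were counted. The counting of elements was tested on simulated data with changes larger than 2-fold, planted at elements with many RNAs. That test does not measure error at the small counts reported here. Exact (Clopper-Pearson) intervals are at 95%.

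Named items follow 1 rule: per window the 8 leading same-chromosome and 6 leading trans RNAs, the 4 elements with most RNAs and 3 with the largest log2 ratio each way, and the 4 largest score differences each way (1 per RNA); others are said to be chosen later. Elements, lists and tests were chosen with earlier results of these data known. Alternatives changed the score minimum, the RNAs counted, the merging of neighbours, the window limits, the element length and the call thresholds. Some genes of the lists are not reported here.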

Additional observations from a re-analysis of the deposited data

How the results depend on the processing

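Scores are pooled by genotype, so alternatives that leave out a library were not run. No paired analysis was possible because the table has no value per library. Alternatives without HIST1H2AC, without HCG18 and without overlapping gene models were chosen after seeing the data. The lower number of histone-window connections in R320* kept its direction under the 6 alternatives run that could change it, from 0.596 with a score of at least 1.5 to 0.842 with only RNAs listed in both genotypes.

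Other ratios were near 1 and turned: the R320* to WT ratio of the whole stretch, 0.979, became 1.06 with only RNAs listed in both genotypes and 1.03 without HIST1H2AC, and the MHC ratio, 1.03, became 0.922 when connections of 1 RNA within 100 kb were merged and 0.978 without overlapping gene models. Merging raised the trans share to 70.7% (WT) and 59.0% (R320*) in the histone window and 80.0% and 71.7% in the MHC, and lowered the RNAs per MHC element from 3.60 to 2.23, since it counts a run of neighbours once. A score of at least 1.5 gave a trans share of 39.4% in WT in the histone window and 38.0% in R320* in the MHC, and only RNAs listed in both genotypes gave 57.9% in WT in the histone window. Among elements under 3000 bp, promoters made up 30.4% in the histone window and 29.1% in the MHC.

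With a limit of 0.5 units, 18 shared connections were higher in R320* and 4 lower; with a score of at least 1.5 in both, 0 were higher by 1 unit. Numbers of elements with 2-fold more and fewer RNAs depended on the setting. Over 25 to 34 Mb they were 20 and 25 of 128, and became 4 and 5 (mean of at least 4 RNAs), 38 and 40 (no minimum), 5 and 5 (cis and local only) and 12 and 14 (score of at least 1.5). In the histone window 13 with fewer became 2 of 4, 4 of 11 (cis and local only) and 7 of 14 (score of at least 1.5); without HIST1H2AC 4 had more and 11 fewer of 25. In the MHC 17 and 12 became 3 and 3, 29 and 21, 3 and 0, and 7 and 6, in the same order. The causes were not tested. Unknown depth limits all single-genotype listings near the minimum score.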

Other observations

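The stretch after the MHC, with elements from 33506077 to 33910467, belonged to neither window and was the most steady apart from the short gap before the MHC: 55.2% of its 105 connections over 19 elements were in both genotypes, with 73 in WT and 90 in R320*. Its RNAs came mainly from genes further along 6p. NUDT3, a gene of a diphosphoinositol phosphatase, and the readthrough RPS10-NUDT3 met 26 elements each in this stretch and class II, 24 of them the same. The calcium channel gene ITPR3, which lies inside, met 5 elements, all in both genotypes, with median scores of 2.09 in WT and 2.13 in R320*. PRKCB RNA met 6 elements in this stretch in R320* and 0 in WT, at BAK1, LINC00336, MLN and LINC01016, with scores of 1.24 to 1.95.

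HCG18 RNA was listed outside the 301 elements at 3 enhancers near LINC02543, the last of which ended at 16051683. All 3 were in WT only, with scores of 1.54 to 1.99. These lie in the neighbourhood of GMPR, whose RNA reaches the histone clusters. At the other end of the stretch, HCG18 met 5 elements of extended class I in R320* only. These values were noticed after other values were seen.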
